A study of Mus musculus with 8 samples.

Results

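The 37 mouse genes of the integrin and laminin families were followed in cultured colon fibroblasts with and without Zeb1. Members were chosen by name from the GENCODE M21 annotation: 18 integrin α genes (Itga), 8 integrin β genes (Itgb) and 11 laminin chain genes (Lama, Lamb and Lamc), of 45321 annotated genes, of which 21647 were protein-coding. The rule itself used no measured value, though it was set with earlier results of these data known. After a filter on low counts, 27 of the 37 members were tested and 10 did not pass the filter.

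Integrins are cell surface receptors made of an α and a β subunit that tie the extracellular matrix outside the cell to the actin cytoskeleton inside. Laminins are matrix proteins made of an α, a β and a γ chain, and they form the sheet of the basement membrane together with type IV collagen, nidogen and perlecan. In the colon this sheet separates the epithelium from the fibroblasts of the lamina propria, and cells on both sides deposit laminin and bind it. ZEB1, the transcription factor deleted here, is best known for repressing epithelial genes through sites of the E-box type.

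Bulk RNA-seq had been carried out on 8 libraries of polyadenylated RNA from adherent fibroblasts of mouse colon. Fib-Ctrl cultures were Zeb1 flox/flox and Fib-dZeb1 cultures (Fib-KO in the labels) were Zeb1 del/del, with 4 libraries each and no further treatment in the labels. Each genotype was represented by 2 numbered cultures, called lines here, and each line gave 2 replicates. According to the study's methods, fibroblasts grew out of colon fragments left after removal of the crypts, on plates coated with gelatine, and Zeb1 was deleted by Cre recombinase activity induced in vitro. The sources used here do not say whether the Fib-Ctrl lines received Cre, nor the age of the animals, so an effect of Cre itself and one of the deletion cannot be told apart. The labels do not tie equally numbered lines to a common animal, nor do they say that the replicates of a line were separate cultures. The p-values over 8 libraries therefore measure the spread between libraries that share only 4 lines.

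Libraries held 18852422 to 25540529 reads. Zeb1 itself fell, from 94.7 ± 2.71 CPM (reads of a gene over the scaled read total of its library) to 14.3 ± 2.96 CPM (mean ± SD, n = 4 each). TPM is the same kind of share with each transcript divided by its length. The summed TPM of 9 fibroblast markers was 14860 to 19027 for Fib-Ctrl libraries, against 7195 to 11208 for those of Fib-dZeb1. Col1a1 was the most abundant of them. In Fib-dZeb1 0 of the 9 were higher (against 7.54% of all genes tested) and 3 were lower (33.3%, against 8.65%), Col1a1, Col1a2 and Pdgfrb. The other 6 were not called, with log2 fold changes from −0.88 for Col3a1 to 0.16 for Thy1. None of the 9 passed in limma-voom with a correlation within lines, with lines summed or without Fib-dZeb1 line 2. Of the other cell types checked, 5 of 6 endothelial, 5 of 5 glial and 7 of 10 immune markers stayed under 1 TPM in every library, among them Cdh5, Sox10 and Ptprc. The marker sums were 0.42 to 1.39 TPM for endothelium, 0.234 to 2.29 TPM for glia and 3.16 to 24 TPM for immune cells over the 8 libraries. Lyz2 was the most abundant immune marker, at 21.6 and 9.73 TPM in Fib-Ctrl line 1 and 5.39 and 1.27 TPM in line 2. In Fib-dZeb1 Lyz2 was at 0.851 to 2.74 TPM and was not called (edgeR adjusted p = 0.0605). Smooth muscle and pericyte markers summed to 335 to 625 TPM in Fib-Ctrl and 233 to 341 TPM in Fib-dZeb1, with 1 of 5 tested lower. The 2 Fib-dZeb1 line 1 libraries stood apart in sex, with at least 113 CPM of Xist and no reads from 4 Y-linked genes, whereas the other 6 libraries had no Xist and 60.6 to 137 CPM of the Y-linked genes. Sex therefore moves with line within Fib-dZeb1. Results are given below with and without that line where its omission changes the call of a reported member that passed the count filter. Fits without a library or a line are named by what was left out.

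Upon loss of Zeb1, 2 of the 27 tested members were higher and 4 were lower. The test was edgeR's quasi-likelihood test on read counts, with p-values adjusted by Benjamini-Hochberg over all 12963 genes tested and a threshold of 0.05. Itga6 and Itgb4, the subunits of the hemidesmosomal laminin receptor, rose. Itga9 and Itga2b, and the laminin chains Lama2 and Lamb2, fell. In bulk libraries such as these, fewer cells of a type and less RNA per cell cannot be told apart. Over all genes tested, 7.54% were higher and 8.65% were lower, beside 7.41% and 14.8% of the tested members, so the share of members called higher was near the background. In CPM, the libraries of the genotypes did not overlap in 5 of the 27 members (18.5%), against 24.3% of all genes tested. The median log2 fold change of the 27 was −0.14, and of all genes −0.005. When reads were scaled by library size alone, a choice that shifts the log2 median over all genes by 0.178, 4 members were higher and 3 lower, and the split over all genes turned from 978 higher and 1121 lower to 2272 higher and 719 lower. When the reads of each line were summed to leave 2 lines against 2, none of the 29 members tested in that fit passed edgeR's test, beside 9 higher and 7 lower genes in all, and at an unadjusted p under 0.05 there were 2 higher and 5 lower members. In a limma-voom fit with a correlation within lines, Itga9 alone passed.

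**Figure D1:**
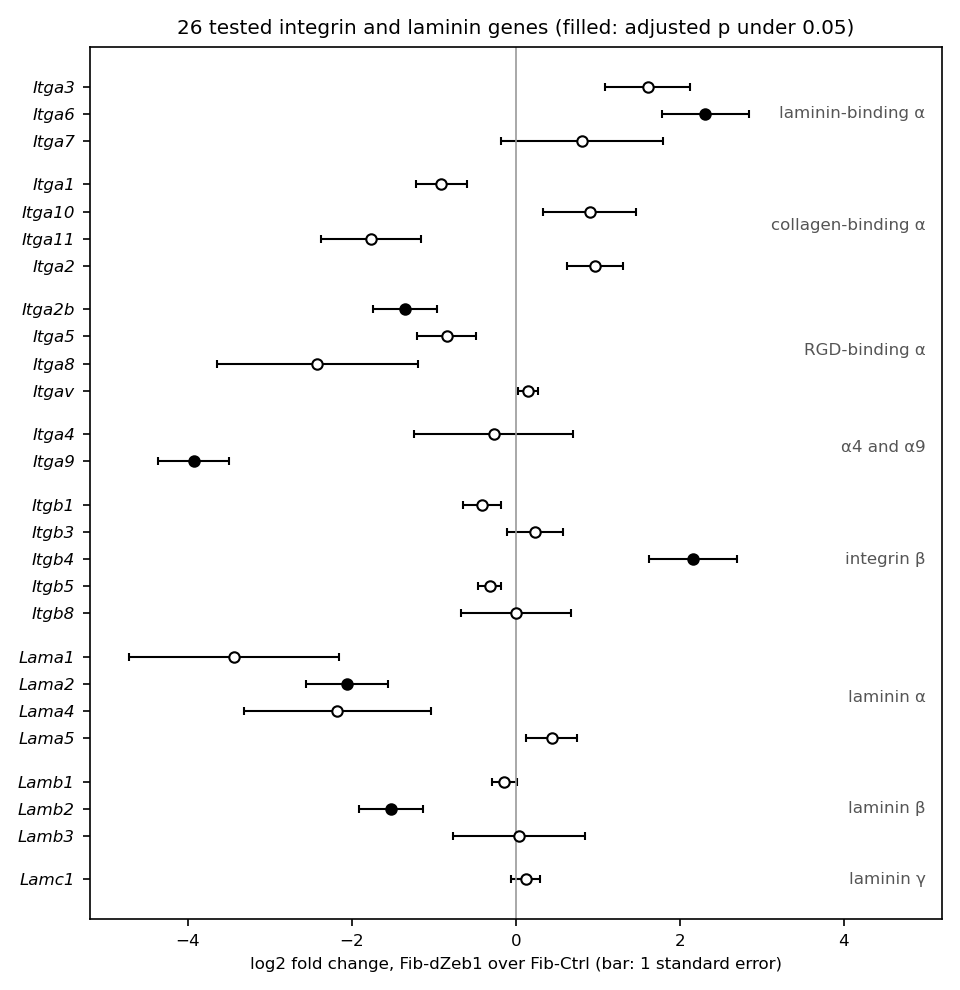
The log2 fold change of Fib-dZeb1 over Fib-Ctrl (x axis) for 26 of the 27 tested members, grouped by role, with bars of 1 standard error from edgeR; filled points passed an adjusted p of 0.05. The 6 filled points are Itga6 and Itgb4 to the right of 0 and Itga9, Itga2b, Lama2 and Lamb2 to the left, and several open points, such as Lama1 and Itga8, carry errors over 1.

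The integrin repertoire of these cells was led by a few genes in both genotypes. Per transcript length, Itgb1, the β subunit shared by most matrix-binding integrins, was the most abundant member, at 1168 ± 379 TPM in Fib-Ctrl and 989 ± 136 TPM in Fib-dZeb1 (SD, n = 4 each). In Fib-Ctrl it was followed by the fibronectin receptor subunit Itga5 at 407 ± 191 TPM, by Itgb5 at 232 ± 32 TPM, Itgav at 195 ± 24 TPM and the collagen receptor subunit Itga11 at 168 ± 69.6 TPM. In each of the 4 Fib-Ctrl libraries Itga5 exceeded Itgb5 and Itgb5 exceeded Itgav, although the ranges of neighbours in this order overlapped between libraries. Itga11 spanned 81 to 245 TPM and overlapped all 3, so its place in the order is not resolved. In Fib-dZeb1 the order was Itga5 at 255 ± 74.9 TPM, Itgav at 243 ± 33.7 TPM, Itgb5 at 178 to 254 TPM and the laminin receptor subunit Itga3 at 87.7 ± 18.3 TPM, with Itga11 at 55.6 ± 54.5 TPM. Itga5, Itgav and Itgb5 again overlapped with each other. Itgb1, Itgb5, Itga5 and Itgav, with the laminin chains Lamb1 and Lamc1, were the 6 members over 100 TPM in every library, and none of them passed the test of genotype, with log2 fold changes from −0.84 for Itga5 (SE 0.36) to 0.15 for Itgav (SE 0.12).

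**Figure D2:**
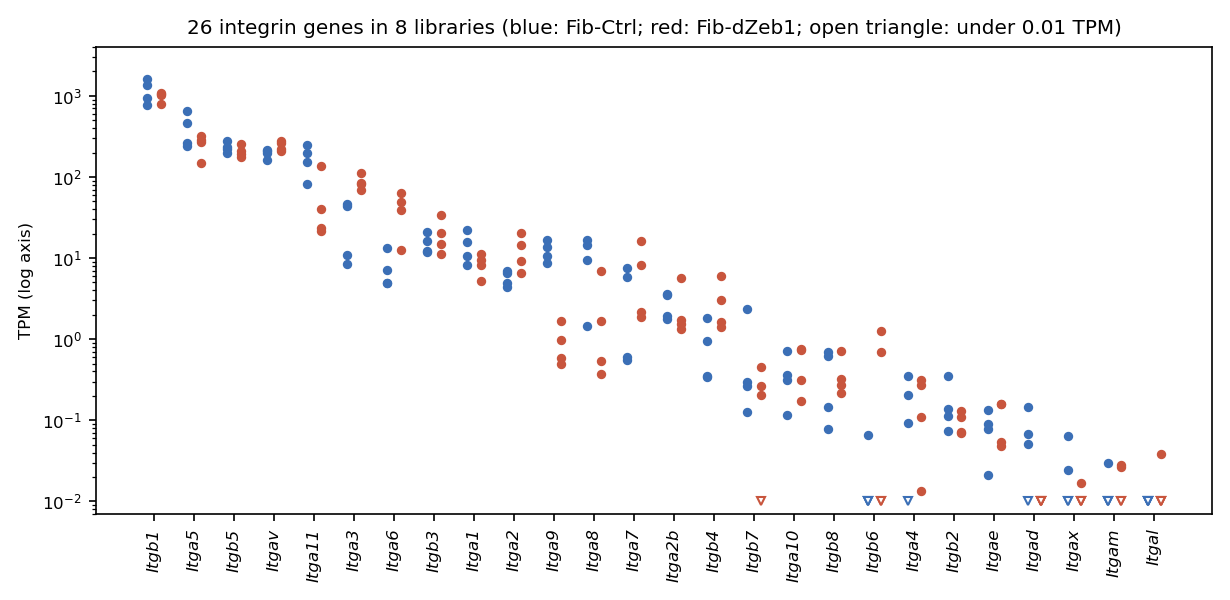
TPM on a log axis (y) of the 26 integrin genes (x, ordered by mean level) in the 4 Fib-Ctrl (blue) and 4 Fib-dZeb1 (red) libraries, 1 point per library, with values under 0.01 TPM drawn as open triangles. The genotypes separate at Itga3 and Itga9 and overlap at the abundant Itgb1, Itgb5 and Itgav; the 5 leukocyte α genes lie at the low end.

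Among the laminin-binding α subunits, Itga6 rose and Itga3 and Itga7 did not pass the test. Itga6 encodes the subunit that pairs with Itgb1 or Itgb4 to bind laminin. Its level in Fib-Ctrl was 8.11 and 9.98 CPM in line 1 and 15.3 and 26.7 CPM for line 2, and in Fib-dZeb1 22.3 and 75.2 CPM in line 1 and 87.5 and 112 CPM for line 2. The groups overlapped only because Fib-dZeb1 line 1 replicate 1 lay below Fib-Ctrl line 2 replicate 2. The fold change was 4.95-fold (log2 2.31, SE 0.53, edgeR adjusted p = 0.0225). The protein-coding transcript Itga6-201 held 52.3% of the gene's TPM in Fib-Ctrl and 49.3% in Fib-dZeb1, and Itga6-203, which the annotation lists as a processed transcript without a coding sequence, held 35.3% and 40.9%. The call was kept without Fib-dZeb1 line 1 (adjusted p = 0.0191) and was lost without Fib-dZeb1 line 2 (0.139) or Fib-Ctrl line 1 (0.0906). It was also lost in 6 of the 8 fits that left out a library, at 0.0505 to 0.0622, and kept on leaving out replicate 2 of Fib-Ctrl line 2 (0.0212) or replicate 1 of Fib-dZeb1 line 1 (0.00908). Over all alternatives its adjusted p ranged from 3.01e-05 with DESeq2 to 0.231 with lines summed.

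Itgb4, the β subunit whose long cytoplasmic tail reaches the keratin network in hemidesmosomes, was low throughout and rose with Itga6. It was at 3.34 and 2.47 CPM for Fib-Ctrl line 1 and 1.16 and 1.29 CPM for line 2, against 5.25 and 4.56 CPM for Fib-dZeb1 line 1 and 18.2 and 9.25 CPM for line 2. In CPM, all 4 Fib-dZeb1 libraries lay above all 4 Fib-Ctrl libraries. In TPM the groups overlapped, with 1.81 in Fib-Ctrl line 1 replicate 2 and 1.65 and 1.4 in Fib-dZeb1 line 1. The difference was 4.48-fold (log2 2.16, SE 0.54, edgeR adjusted p = 0.029). Per length the gene reached only 3 ± 2.09 TPM in Fib-dZeb1 from 0.868 ± 0.693 TPM in Fib-Ctrl, far below Itgb1. The call was lost without Fib-dZeb1 line 2 (log2 1.24, adjusted p = 0.167) or Fib-Ctrl line 2 (0.114) and kept without Fib-dZeb1 line 1 (0.0238). Leaving out single libraries kept it when replicate 1 of Fib-Ctrl line 1 was missing, or either Fib-dZeb1 line 1 library, and gave 0.058 to 0.0708 without any of the other 5. Over all alternatives the adjusted p of Itgb4 ranged from 0.000311 to 0.31.

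Itga3, another laminin receptor α subunit, was higher in all 4 Fib-dZeb1 libraries but missed the threshold. Its Fib-Ctrl levels were 128 and 109 CPM in line 1 and 24.3 and 32.3 CPM for line 2, and its Fib-dZeb1 levels 197 and 305 CPM in line 1 and 176 and 220 CPM for line 2. The difference of 3.06-fold (log2 1.61, SE 0.52) had an edgeR adjusted p of 0.0664, and the Fib-Ctrl lines themselves differed by −2.07 on the log2 scale (line 2 minus line 1, SE 0.25, edgeR adjusted p = 0.00299). With DESeq2, with library size alone, with TPM in limma and with a term for line number Itga3 passed (adjusted p = 0.0048, 0.0412, 0.03 and 0.0118). It also passed without Fib-Ctrl line 1, where the difference was 2.99 (adjusted p = 0.00251), and without Fib-Ctrl line 2, where it was 0.92 (0.0458). Without Fib-dZeb1 line 1 it did not pass (0.196), and over all alternatives its adjusted p ranged from 0.00251 to 0.38.

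Itga7, the laminin receptor subunit known from muscle, varied mainly by line. It was at 1.37 and 1.34 CPM for Fib-Ctrl line 1 and 17.9 and 14.1 CPM for line 2, and at 16.9 and 35.4 CPM for Fib-dZeb1 line 1 and 3.92 and 4.55 CPM for line 2. The line difference was large in both genotypes and ran in opposite directions, by 3.55 in Fib-Ctrl (SE 0.39, edgeR adjusted p = 0.00236) and −2.62 in Fib-dZeb1 (SE 0.35, adjusted p = 0.0102). The genotypes differed by 0.81 on the log2 scale (SE 0.99, adjusted p = 0.609).

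Some markers of epithelium were higher in Fib-dZeb1, as were Itga6 and Itgb4, and another was lower. The summed TPM of 13 epithelial markers was 2.47 to 15 for Fib-Ctrl libraries, against 25.8 to 191 for those of Fib-dZeb1. Of the 3 of these genes that were tested, Krt18 and Epcam were higher in Fib-dZeb1 and Krt19 was not called. Krt18, a simple-epithelium keratin, was at 0 to 0.563 TPM in Fib-Ctrl, 66.6 and 179 TPM in Fib-dZeb1 line 1 and 3.97 and 9.05 TPM in line 2, an order of the lines opposite to that of Itga6 and Itgb4. Epcam, an epithelial adhesion protein, was at 0 to 0.0516 TPM in Fib-Ctrl. In Fib-dZeb1 it was at 1.84 and 3.53 TPM in line 1 and 4.58 and 4.48 TPM in line 2. Krt19 was at 1.61 to 5.42 TPM in Fib-Ctrl, 2.55 and 5.8 TPM in Fib-dZeb1 line 1 and 16.3 and 26.6 TPM in line 2. Epcam, Krt19, Itga6 and Itgb4 thus had their higher values in Fib-dZeb1 line 2. In edgeR the Fib-dZeb1 lines differed past the threshold for Krt19 (log2 2.31, adjusted p = 0.0416) and Itgb4 (1.48, 0.0487). They did not for Epcam (0.71, SE 0.45, adjusted p = 0.369) or Itga6 (1.03, SE 0.5, 0.247). Lgr5, an intestinal stem cell receptor, went the other way, at 10.9 and 6.6 TPM in Fib-Ctrl line 1, 0.0384 and 0.142 TPM in Fib-Ctrl line 2 and at most 0.228 TPM in Fib-dZeb1. With 1022 reads in Fib-Ctrl against 5 in Fib-dZeb1 it did not pass the filter, and it was lower where that filter was not applied, in edgeR (log2 −7.69, adjusted p = 0.0235) and DESeq2 (−7.85, 9.95e-05). Krt8 (1 read in Fib-Ctrl, 102 in Fib-dZeb1) and Cdh1 (3 and 22) did not pass the filter either. For both, all Fib-dZeb1 libraries lay above all Fib-Ctrl libraries in CPM. Without the filter, 3 epithelial markers were higher and 1 was lower in edgeR, and 4 and 1 with DESeq2. The intestinal epithelial markers Cdx1, Cdx2 and Cldn3 had no reads in any library, and 8 of the 13 markers stayed under 1 TPM in every library. The part of epithelial cells in the Itga6 and Itgb4 result was not tested.

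**Figure D3:**
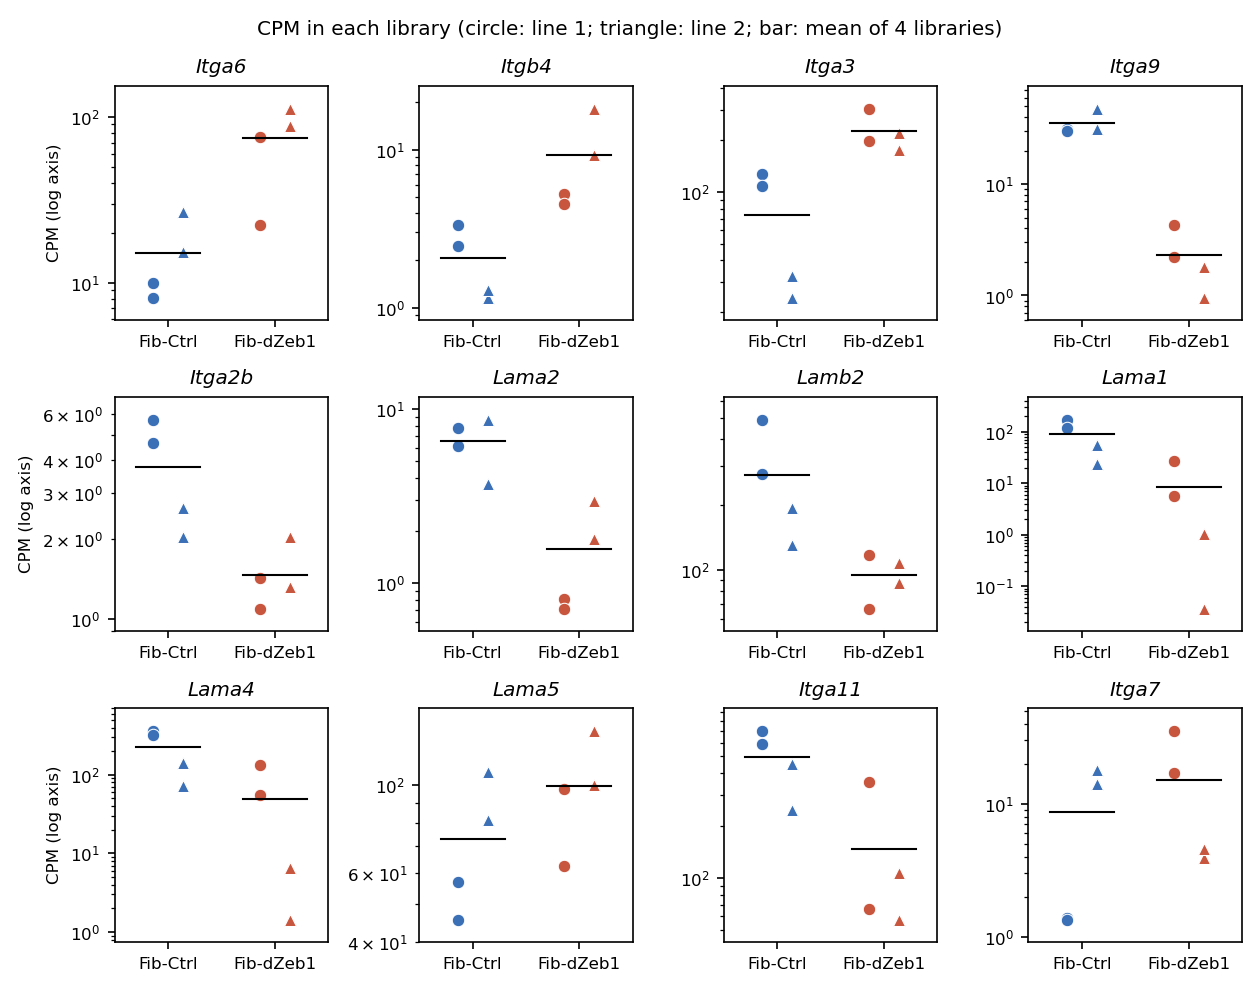
CPM on log axes (y, a separate scale per panel) of 12 members in each library, Fib-Ctrl in blue and Fib-dZeb1 in red, circles for line 1 and triangles for line 2, with the mean of 4 libraries as a bar. The 4 Fib-dZeb1 points of Itga9 (0.954 to 4.27 CPM) lie far below those of Fib-Ctrl (30 to 47.7 CPM), whereas Lama1, Lama4 and Itga7 are spread widely within a genotype.

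None of the 4 collagen-binding α subunits passed edgeR's test, while DESeq2 called Itga1, Itga2 and Itga11 (adjusted p = 0.0264, 0.0314 and 0.0415) and their unadjusted edgeR p-values were 0.0186, 0.0209 and 0.0182. With a block for replicate number edgeR called Itga1 (log2 −0.86, adjusted p = 0.027) and Itga11 (−2.04, 0.038), both lower. Itga11, the fibrillar collagen receptor subunit typical of fibroblasts and the most abundant of the group, was at 704 and 588 CPM for Fib-Ctrl line 1 and 455 and 247 CPM for line 2, and at 356 and 65.8 CPM for Fib-dZeb1 line 1 and 106 and 57.4 CPM for line 2. Fib-dZeb1 line 1 replicate 1 lay among the Fib-Ctrl values, and the other 3 Fib-dZeb1 libraries lay below them. The difference was −1.77 on the log2 scale (SE 0.61, edgeR adjusted p = 0.08), and without Fib-dZeb1 line 1 replicate 1 it was −2.71 (adjusted p = 0.00841), and without that line −2.61 (0.0269). Over all alternatives the adjusted p of Itga11 ranged from 0.00841 to 0.321. Itga1 and Itga2, whose products bind type IV and fibrillar collagens, stood at −0.91 (SE 0.31, adjusted p = 0.0811) and 0.97 (SE 0.34, adjusted p = 0.0871), with Itga2 at 10.5 to 17.5 CPM in Fib-Ctrl, against 14.2 to 45.1 CPM in Fib-dZeb1. Without Fib-dZeb1 line 1 Itga2 passed, at 1.42 (adjusted p = 0.0236, with a range of 0.0187 to 0.532 over all alternatives). Itga10 stayed at or under 2.05 CPM in every library.

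Of the α subunits that recognise RGD sequences (the arginine-glycine-aspartate motif of fibronectin, vitronectin and related ligands), Itga2b fell and the 3 others were not called. Itga5, the fibronectin receptor subunit, was at 613 and 700 CPM for Fib-Ctrl line 1, 1700 and 1249 CPM for line 2, and at 341 to 756 CPM in Fib-dZeb1 (log2 −0.84, SE 0.36, edgeR adjusted p = 0.145). Its Fib-Ctrl lines differed by 1.17 on the log2 scale (adjusted p = 0.0349), and Fib-Ctrl line 1 lay within the Fib-dZeb1 range. Without Fib-Ctrl line 1 the genotype difference of Itga5 was −1.31 (adjusted p = 0.0319, with a range of 0.0319 to 0.766 over all alternatives). Itgav, which pairs with several β subunits and takes part in activation of latent TGF-β, spanned only 517 to 660 CPM in Fib-Ctrl, against 580 to 732 CPM in Fib-dZeb1. Itga8, whose product binds nephronectin, was at 5.2 to 58.7 CPM in Fib-Ctrl, 21.4 and 5.4 CPM for Fib-dZeb1 line 1 and 0.228 and 0.44 CPM for line 2, so that both Fib-dZeb1 line 1 libraries lay within the Fib-Ctrl range and both line 2 libraries far below it (log2 −2.42, SE 1.23, adjusted p = 0.208). Without Fib-dZeb1 line 1 the difference of Itga8 was −6.71 (adjusted p = 0.0255, with a range of 0.0255 to 0.543 over all alternatives).

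Itga2b encodes the α subunit of the platelet fibrinogen receptor and was low here, though it passed the count filter. It was at 4.67 and 5.71 CPM for Fib-Ctrl line 1 and 2.04 and 2.63 CPM for line 2, and at 1.43 and 1.09 CPM for Fib-dZeb1 line 1 and 2.05 and 1.32 CPM for line 2. The groups touched, at 2.04 against 2.05 CPM. The difference was 2.55-fold (log2 −1.35, SE 0.39, edgeR adjusted p = 0.047). It was not seen in the TPM summed over transcripts, at 2.72 ± 1.01 in Fib-Ctrl and 2.55 ± 2.06 in Fib-dZeb1 (SD, n = 4 each). The protein-coding Itga2b-201 went from 1.63 to 0.475 TPM in the mean and from 59.7% to 18.6% of the sum, the rest being transcripts annotated as processed. Over all alternatives the adjusted p of Itga2b ranged from 0.00849 to 0.718, and 3 of 17 alternative fits, those without a line not counted, kept the call, of which the only one that left out a library was that without Fib-Ctrl line 2 replicate 1 (0.0386). The other 7 omissions gave 0.0553 to 0.119. The call was lost with a block for replicate number (0.0638), without Fib-dZeb1 line 1 (log2 −1.16, adjusted p = 0.179) or line 2 (0.128) and without Fib-Ctrl line 1 (−0.67, 0.27), and kept without Fib-Ctrl line 2 (−1.82, 0.0184). Of 4 platelet markers, summing to 11.3 to 14.4 TPM in Fib-Ctrl and 3.27 to 11.1 TPM in Fib-dZeb1, 2 were tested and Gp1bb was lower, while Gp9 had no reads in any library. Their part in the Itga2b result was not tested.

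Itga9 had the lowest adjusted p of the 27 tested members and the largest fall among them. Its product pairs with Itgb1 and binds tenascin-C, osteopontin and the extra domain A of fibronectin. Fib-Ctrl libraries held 31.5 and 30 CPM in line 1 and 47.7 and 31.4 CPM for line 2, and Fib-dZeb1 libraries 2.2 and 4.27 CPM in line 1 and 1.82 and 0.954 CPM for line 2. All 4 Fib-dZeb1 libraries lay below all 4 Fib-Ctrl libraries, and neither pair of lines differed past the threshold (adjusted p = 0.494 and 0.12). The fall was 15.2-fold (log2 −3.93, SE 0.43, edgeR adjusted p = 0.00161). It was kept in 17 of 18 alternative fits, in all 8 that left out a library and in the 4 further fits that left out a line (log2 −4.67 to −3.43). It was lost when lines were summed (log2 −3.91, adjusted p = 0.14). Over all alternatives the adjusted p ranged from 1.8e-21 to 0.14. The related Itga4, which shares ligands with Itga9, held 37 reads over the 4 libraries of either genotype (0 to 0.99 CPM).

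The fall of Itga9 covered its main and a shorter transcript. Itga9-201, the full-length protein-coding transcript, was at 6.89, 6.35, 9.89 and 6.97 TPM in Fib-Ctrl and 0.586, 1.05, 0.488 and 0.219 TPM in Fib-dZeb1. Itga9-202, a protein-coding transcript that begins further into the gene, was listed at 1.87, 2.3, 4.5 and 0 TPM in Fib-Ctrl and at 0 in all 4 Fib-dZeb1 libraries. Reads shared between these transcripts were divided by estimation, so the split is less certain than the gene total.

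Because ZEB1 binds E-boxes, the RefSeq promoters (250 bases before to 50 after a transcription start, GRCm38.p6) of the called members were searched for the letters CAGGTG on both strands (CACCTG on the other). Entries were found for Itga9, Itga2b, Lama2 and Lamb2 and not for Itga6 and Itgb4. They are shown to let the letters be read beside the values, with the motif in capitals. Itga9 (chr9:118711442-118711741, plus strand) held the motif 2 times, 87 and 55 bases before the start, both on the gene's strand. That start lies 35 bases from the start of Itga9-202 and 105 kb inside the gene from the start of Itga9-201, so the window is that of the shorter transcript. Itga2b (chr11:102469834-102470133, minus strand), Lama2 (chr10:27616893-27617192, minus strand) and Lamb2 (chr9:108479612-108479911, plus strand) start within 99 bases of their leading transcripts and held no copy.
Itga9: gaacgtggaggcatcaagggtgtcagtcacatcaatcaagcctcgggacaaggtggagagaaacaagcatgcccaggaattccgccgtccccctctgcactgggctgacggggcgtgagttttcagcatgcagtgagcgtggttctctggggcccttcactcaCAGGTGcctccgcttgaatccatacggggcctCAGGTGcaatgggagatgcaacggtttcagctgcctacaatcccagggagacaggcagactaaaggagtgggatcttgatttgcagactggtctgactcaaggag
Itga2b: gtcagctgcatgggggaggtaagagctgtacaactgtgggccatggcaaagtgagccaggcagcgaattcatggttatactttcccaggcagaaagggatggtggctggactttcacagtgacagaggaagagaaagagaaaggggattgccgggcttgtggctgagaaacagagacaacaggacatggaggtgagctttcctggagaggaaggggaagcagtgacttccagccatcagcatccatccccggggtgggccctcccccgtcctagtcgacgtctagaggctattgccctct
Lama2: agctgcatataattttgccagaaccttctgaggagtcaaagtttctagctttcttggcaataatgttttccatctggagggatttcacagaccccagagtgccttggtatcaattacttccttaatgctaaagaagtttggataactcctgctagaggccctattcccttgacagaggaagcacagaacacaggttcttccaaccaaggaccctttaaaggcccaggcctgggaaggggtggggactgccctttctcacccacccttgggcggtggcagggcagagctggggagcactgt
Lamb2: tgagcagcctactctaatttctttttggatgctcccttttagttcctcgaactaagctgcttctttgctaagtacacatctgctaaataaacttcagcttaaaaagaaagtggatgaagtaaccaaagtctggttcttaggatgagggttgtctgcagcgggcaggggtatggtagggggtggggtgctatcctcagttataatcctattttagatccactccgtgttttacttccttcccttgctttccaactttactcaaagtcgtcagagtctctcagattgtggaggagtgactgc

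Of all 32851 RefSeq promoters in the table, 20.2% held the motif at least once and 2.88% at least 2 times. Of the 26 promoters of 23 members, 8 held it (30.8%), each of a different member, and 3 held it at least 2 times (11.5%). Counted by gene, 8 of 23 members had a promoter with the motif, beside 6098 of 27025 genes in the table. Besides Itga9 these were Itga3, Itga11, Itgb5, Itgb6, Itgb8, Lama5 and Lamb3, of which none was called. A match of these letters is a description of the window and says nothing of binding in these cells.

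Among the β subunits, Itgb4 alone of the 5 tested passed and Itgb1 carried most of the transcripts. Itgb1 held 75.3% to 85.3% of all integrin β TPM in Fib-Ctrl, against 78.5% to 83.1% in Fib-dZeb1. Its levels were 2012 and 1765 CPM for Fib-Ctrl line 1, 3582 and 3153 CPM for line 2, and 1642 to 2142 CPM in Fib-dZeb1 (log2 −0.41, SE 0.23, edgeR adjusted p = 0.249). Only Fib-Ctrl line 2 stood above the rest, and the Fib-Ctrl lines differed by 0.83 on the log2 scale (adjusted p = 0.0136). Without Fib-Ctrl line 1 the genotype difference of Itgb1 was −0.77 (adjusted p = 0.0172), and with the other 21 alternatives it did not pass. Itgb5, a partner of Itgav that binds vitronectin, was at 343 to 479 CPM in Fib-Ctrl, against 293 to 395 CPM in Fib-dZeb1. Itgb3, another partner of Itgav, was at 42.1 to 74.1 CPM and 35.1 to 104 CPM. Itgb8, which with Itgav activates TGF-β, stayed at or under 3.1 CPM in every library.

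The leukocyte integrins were at the floor of detection. Itgal, Itgam, Itgax, Itgad and Itgae, α subunits of immune cells, and their β partners Itgb2 and Itgb7 did not pass the count filter. Itgal had 0 reads in Fib-Ctrl and 2 in Fib-dZeb1, and Itgad had 12 and 0. A count of 0 allows up to 3 reads per genotype, which on the unscaled read totals is 0.0362 CPM for Fib-Ctrl and 0.0339 CPM for Fib-dZeb1 and covers counting error only. Itgb7 reached 3.67 CPM for Fib-Ctrl line 2 replicate 2 and at most 0.624 CPM in the other 7 libraries. Itgb6, the epithelial partner of Itgav, had 1 read in the 4 Fib-Ctrl libraries and 0 in Fib-dZeb1 line 1, but was at 1.32 and 0.991 CPM for Fib-dZeb1 line 2. Over all 8 libraries Itgb6 did not pass the count filter, and without that filter it did not reach the threshold in edgeR (adjusted p = 0.107) or DESeq2 (0.0629). Without Fib-dZeb1 line 1, 29 members passed the filter, and the value of Itgb6 in that fit is not given here. None of the 10 members under the filter passed in either unfiltered fit over all libraries. At an unadjusted p under 0.05 Itgb6 was higher in both and Itgad lower in edgeR.

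Of the laminin α chains, Lama2 fell, while the more abundant Lama1 and Lama4 were spread too widely to pass. Lama2, the α chain best known from muscle and nerve basement membranes, was low, at 7.79 and 6.12 CPM for Fib-Ctrl line 1 and 8.68 and 3.72 CPM for line 2, and at 0.812 and 0.712 CPM for Fib-dZeb1 line 1 and 2.96 and 1.8 CPM for line 2. The groups did not overlap. The fall was 4.17-fold (log2 −2.06, SE 0.5, edgeR adjusted p = 0.0269). It was lost in 5 of the 8 fits that left out a library, at 0.0515 to 0.0674, and kept on leaving out replicate 2 of Fib-Ctrl line 2, replicate 1 of Fib-dZeb1 line 1 or Fib-dZeb1 line 2 replicate 1. It was lost without Fib-dZeb1 line 1 (log2 −1.46, adjusted p = 0.0713) or Fib-Ctrl line 1 (0.0772), and over all alternatives its adjusted p ranged from 0.000324 to 0.278.

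Lama4, the α chain of vascular and stromal basement membranes, was the leading laminin α chain of Fib-Ctrl. It was at 365 and 320 CPM for Fib-Ctrl line 1 and 143 and 72.3 CPM for line 2, and at 135 and 55.3 CPM for Fib-dZeb1 line 1 and 6.52 and 1.43 CPM for line 2. Fib-dZeb1 line 1 overlapped Fib-Ctrl line 2, and Fib-dZeb1 line 2 lay far below every other library (log2 −2.18, SE 1.14, edgeR adjusted p = 0.221). The 2 Fib-dZeb1 lines differed by −4.62 on the log2 scale (SE 0.73, adjusted p = 0.0163). Without Fib-dZeb1 line 1 the genotype difference of Lama4 was −5.84 (adjusted p = 0.0244), and over all alternatives its adjusted p ranged from 0.0244 to 0.607.

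Lama1, the α chain of the first basement membranes of the embryo, had the same layout. It was at 172 and 119 CPM for Fib-Ctrl line 1 and 55.7 and 23.7 CPM for line 2, at 27.6 and 5.57 CPM for Fib-dZeb1 line 1, and at 1.05 and 0.0367 CPM for line 2. In both genotypes line 2 was lower than line 1 for Lama1 and Lama4, past the threshold in Fib-dZeb1 only, and whether the line difference itself differed between the genotypes was not tested. The genotype difference was −3.44 on the log2 scale (SE 1.28, edgeR adjusted p = 0.0986). Without Fib-dZeb1 line 1 it was −7.49 (adjusted p = 0.0247), without its replicate 1 alone −5.39 (0.0285), and over all alternatives the adjusted p of Lama1 ranged from 0.016 to 0.404. Lama5, the main epithelial laminin α chain, was at 45.6 to 108 CPM in Fib-Ctrl, against 62.4 to 137 CPM in Fib-dZeb1 and did not pass (log2 0.44, SE 0.31, adjusted p = 0.355). Lama3, the α chain of epithelial laminin in skin, held 11 reads in Fib-Ctrl and 14 in Fib-dZeb1 and did not pass the count filter.

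As a share of all laminin α TPM, Lama4 made up 54.8% to 75.7% in Fib-Ctrl, 73% and 50.3% in Fib-dZeb1 line 1 and 10.7% and 1.94% in Fib-dZeb1 line 2. Lama5 made up 5.6% to 32.2% in Fib-Ctrl, 17.4% and 46.1% in Fib-dZeb1 line 1 and 85% and 96.2% in Fib-dZeb1 line 2. Lama5 was thus the leading α chain of both Fib-dZeb1 line 2 libraries and Lama4 that of the other 6, without a change in the level of Lama5 that passed the test. The summed laminin α TPM was 35.2 to 146 for Fib-Ctrl libraries, against 19.1 to 58.1 for those of Fib-dZeb1, and lay below the β sum (189 to 329 over all libraries) and the level of Lamc1 in each of the 8 libraries.

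Of the laminin β chains, Lamb2 fell and Lamb1 and Lamb3 did not pass. Lamb2, the β chain of neuromuscular, kidney and stromal basement membranes, was at 490 and 276 CPM for Fib-Ctrl line 1 and 193 and 130 CPM for line 2, and at 118 and 66.6 CPM for Fib-dZeb1 line 1 and 108 and 87.6 CPM for line 2. The groups were apart by a small gap, from 118 to 130 CPM. In TPM they overlapped, with 48.5 in Fib-Ctrl line 2 replicate 2 and 52.7 in Fib-dZeb1 line 1 replicate 1. The fall was 2.86-fold (log2 −1.52, SE 0.39, edgeR adjusted p = 0.0321). Without Fib-Ctrl line 1, whose replicate 1 was the highest library, the difference was −0.77 (adjusted p = 0.083), and it was also lost without Fib-dZeb1 line 1 (0.115) or line 2 (0.152). Single omissions lost it in 5 of 8 fits, at 0.0508 to 0.0881, and kept it without either Fib-Ctrl line 2 library or Fib-dZeb1 line 1 replicate 1. Over all alternatives the adjusted p of Lamb2 ranged from 0.000529 to 0.267.

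Lamb1, the most widely used β chain, stayed at 422 to 641 CPM in Fib-Ctrl, against 414 to 505 CPM in Fib-dZeb1 (log2 −0.14, SE 0.15, edgeR adjusted p = 0.545). In Fib-Ctrl line 1 replicate 1 Lamb2 exceeded it per length, at 201 against 126 TPM, and in the other 7 libraries Lamb1 led. Lamb3, the β chain that joins Lama3 in epithelial laminin, stayed at or under 3.56 CPM. Its Fib-dZeb1 lines differed by 2.83 on the log2 scale (SE 0.61, adjusted p = 0.0382), while the genotypes differed by 0.04 (SE 0.8).

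Lamc1, the γ chain of most laminins, did not pass the test. It was at 541 to 800 CPM in Fib-Ctrl, against 564 to 839 CPM in Fib-dZeb1 (log2 0.12, SE 0.18, edgeR adjusted p = 0.673). Its Fib-Ctrl lines differed by −0.43 on the log2 scale (SE 0.12, adjusted p = 0.0462). Lamc3 held 23 reads in Fib-Ctrl and 5 in Fib-dZeb1 and did not pass the count filter.

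**Figure D4:**
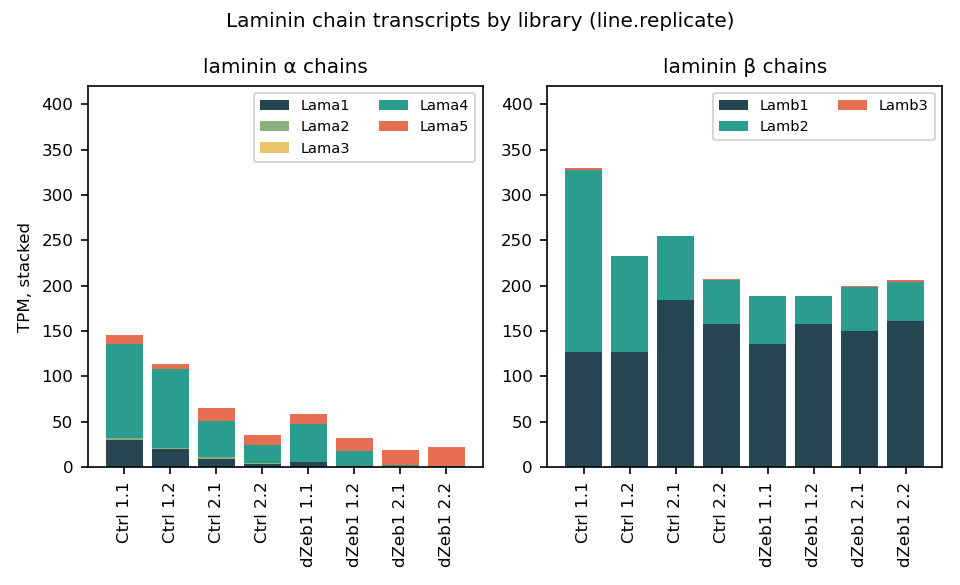
Stacked TPM (y) of the laminin α and β chain genes in each library (x, line and replicate number after the genotype), on 1 scale in both panels. Lama4 makes up most of the α column in 6 libraries and Lama5 in both Fib-dZeb1 line 2 libraries; Lamb2 is tallest in Fib-Ctrl line 1 replicate 1, at 201 TPM.

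The 2 lines of a genotype also differed from each other in several members. With a mean for each of the 4 lines, edgeR called 6 of the 27 members between the Fib-Ctrl lines (22.2%, against 17% of all genes tested) and 8 between the Fib-dZeb1 lines (29.6%, against 6.87%). With every gene of at least 1 read kept, a setting added after the data had been seen, these counts became 20 of 37 members (54.1%, against 16.7% of all genes) and 17 (45.9%, against 10.4%), and the cause was not tested. These tests set 2 libraries of a line against 2 of another and so measure the spread of replicates within a line. In Fib-Ctrl the 6 were Itga3, Itga5, Itga7, Itgb1, Itgb8 and Lamc1. In Fib-dZeb1 the 8 were Itga2, Itga7, Itga8, Itgb3, Itgb4, Lama1, Lama4 and Lamb3. Itga8, Lama1 and Lama4 had the largest line differences in Fib-dZeb1, at −5.26, −5.03 and −4.62 on the log2 scale, all lower in line 2, which is the line with Y-linked reads. Whether sex or another property of the lines goes with these values cannot be told apart.

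**Figure D5:**
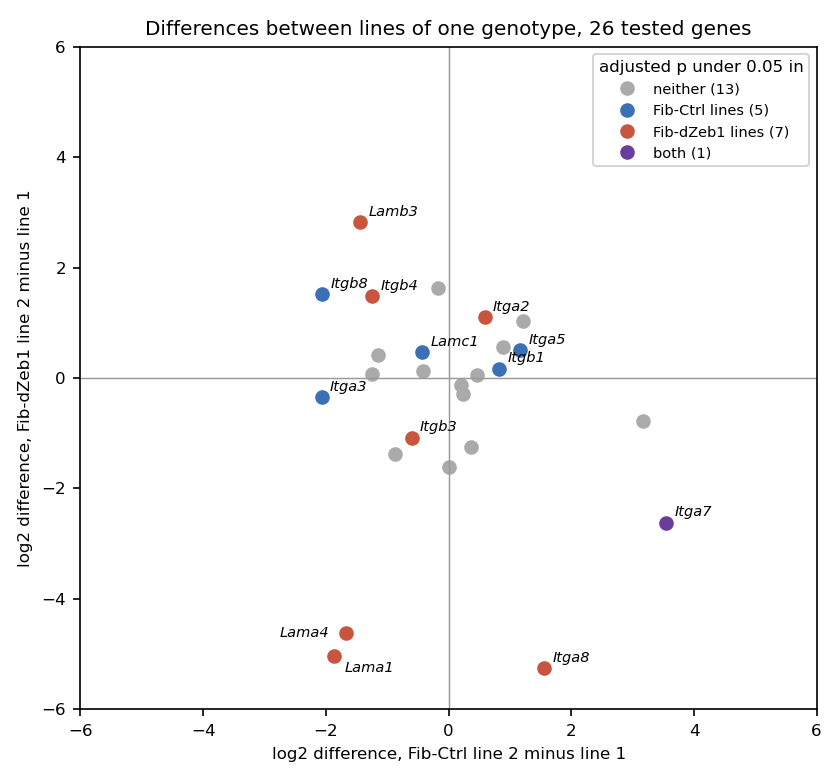
Log2 difference of line 2 minus line 1 within Fib-Ctrl (x) and within Fib-dZeb1 (y) for 26 of the 27 tested members, coloured by which pair of lines passed an adjusted p of 0.05, with the number of genes in brackets. Itga7 is the only gene called in both, at 3.55 and −2.62; Lama1, Lama4 and Itga8 lie lowest on the y axis.

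Neighbouring genes were read beside the members, since deleted and control lines can differ over stretches of a chromosome. Lama2, Lama4 and Itga7 lie on chromosome 10. The median log2 fold change of the other 626 tested genes there was −0.17, with 14 higher and 110 or 111 lower. Of all 12963 genes tested, 978 were higher and 1121 lower. The 72 tested genes within 5 Mb of Itga7 had a median of −0.29, with 0 higher and 18 lower. The 32 tested genes within 5 Mb of Lama2 had a median of 0.09, with 5 higher and 5 lower, and the 49 around Lama4 a median of −0.18, with 0 higher and 9 lower. Around Itga9 (71 genes) the median was −0.06, around Lamb2 (114 genes) 0.02 and around Itga6 (58 genes) 0.04. For Itgb4 (138 genes) it was −0.09, and for Itga2b (166 genes) −0.08. Over the other 1020 tested genes of chromosome 2, which holds Itga6, the median was 0.17, with 142 higher and 52 lower. On chromosome 9, with Itga9 and Lamb2, it was −0.02 over 743 genes, with 44 higher and 66 lower. On chromosome 11, with Itgb4 and Itga2b, it was −0.1 over 1048 genes, with 58 or 59 higher and 103 or 104 lower.

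Of the genes that work with laminins, several receptors outside the integrin family were lower. The list of 16 genes covered dystroglycan, the sarcoglycan complex, syndecans, the enzymes that glycosylate dystroglycan, and also Bcam, Rpsa and Cspg4. Of these, 15 were tested and 7 were lower (46.7%, against 8.65% of all genes tested). None was higher (against 7.54%), also with DESeq2, and the median log2 fold change was −0.59. Bcam was the 1 gene higher at an unadjusted edgeR p under 0.05 (log2 1.3, SE 0.54, adjusted p = 0.136). Sgcd, a sarcoglycan, was at 7.5 to 11.1 TPM in Fib-Ctrl, 0 in both Fib-dZeb1 line 1 libraries and 0.788 and 0.0956 TPM in line 2 (log2 −5.62, SE 0.96, edgeR adjusted p = 0.00809). Sspn, which stabilises the same complex, was at 12.4 to 19.5 TPM in Fib-Ctrl and 4.02 to 11.6 TPM in Fib-dZeb1 (log2 −1.24, SE 0.31, adjusted p = 0.0306). Dystroglycan itself, Dag1, was at 117 TPM in the mean of Fib-Ctrl and 111 TPM in that of Fib-dZeb1 (adjusted p = 0.296). The count of 7 was the same under each scaling tried, went to 3 with a correlation within lines and to 0 with lines summed, was 4 lower beside 2 higher without Fib-dZeb1 line 1, and was 4 lower without Fib-dZeb1 line 2.

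Of 19 other basement membrane genes, 18 were tested, 2 were higher (11.1%, against 7.54% of all genes) and 3 were lower (16.7%, against 8.65%), with a median of −0.36. With library size alone 4 were higher and 2 lower, with a median of −0.19, and with a correlation within lines none passed. The collagen IV chains Col4a4 (log2 4.02, SE 0.65, edgeR adjusted p = 0.00685) and Col4a3 (2.76, SE 0.71, 0.0339) rose from very low levels, with all libraries under 1 TPM. The far more abundant chain Col4a2 fell, from 724 to 499 TPM in the means (log2 −0.71, SE 0.2, edgeR adjusted p = 0.0415). Col4a1 was not called (log2 −0.32, adjusted p = 0.287). Sparc, a collagen-binding matricellular protein, fell from 4685 to 7259 TPM in Fib-Ctrl to 1870 to 3391 TPM in Fib-dZeb1 (log2 −1.34, SE 0.2, adjusted p = 0.00568), and Hspg2, which encodes perlecan, fell by 0.77 on the log2 scale (SE 0.15, adjusted p = 0.0114). Nid1, the nidogen that links laminin to collagen IV, stood at 486 and 484 TPM in the means.

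Of 24 integrin ligands outside the laminins, 20 were tested, none was higher (2 at an unadjusted edgeR p under 0.05, 2 with DESeq2; against 7.54% of all genes) and 3 were lower (15%, against 8.65%), with a median of −0.37. With a correlation within lines none of the 20 passed. Thrombospondin 1 (Thbs1) fell from 1792 to 4158 TPM in Fib-Ctrl to 622 to 1366 TPM in Fib-dZeb1 (log2 −1.87, SE 0.29, edgeR adjusted p = 0.00625). Fbn1, which encodes fibrillin 1, fell by 1.73 on the log2 scale (SE 0.32, adjusted p = 0.0102), and the third was fibronectin (Fn1, log2 −1.04, SE 0.25, adjusted p = 0.0249). Of the ligands of Itga9, fibronectin was thus lower as a whole gene. Tenascin-C (Tnc) was at 349 and 358 TPM in the means of Fib-Ctrl and Fib-dZeb1, with an edgeR adjusted p of 0.746. Osteopontin (Spp1) was at 99.8 and 52 TPM in these means and was not called (log2 −1.09, SE 0.56, adjusted p = 0.214).

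Inside the cell, 30 of 33 integrin adaptor and signalling genes were tested, of which 2 were higher (6.67%, against 7.54% of all genes) and 6 lower (20%, against 8.65%), with a median of −0.19. With a correlation within lines none was higher and 1 was lower. The kinases Ptk2b (log2 0.84, SE 0.19, edgeR adjusted p = 0.0214) and Src (0.52, SE 0.1, 0.0143) were higher, and Lims2, a partner of integrin-linked kinase (−1.77, SE 0.31, 0.00892), and Nedd9, a scaffold of the Cas family (−1.4, SE 0.37, 0.0366), led those that were lower. With library size alone this list turned to 6 higher and 5 lower. Of 12 tetraspanins and other lateral partners 1 was higher, the integrin-associated protein Cd47 (log2 0.69, SE 0.16, adjusted p = 0.0251), and 4 were lower, led by Cav1 (−1.27) and followed among them by Cd81 (−0.84, SE 0.1, adjusted p = 0.00217). These are 8.33% and 33.3% of the list, against 7.54% and 8.65% of all genes, and with a correlation within lines none was higher and 2 were lower. Of 7 hemidesmosome genes, 4 were tested, Krt18 was higher and Col17a1 was lower (log2 −1.99, SE 0.45, adjusted p = 0.021), and neither passed with a correlation within lines. The plakins Plec and Dst, which join Itgb4 to keratin, were not called, and the basal keratins Krt5 and Krt14 were too low to test. With lines summed, edgeR called no gene of these 6 lists or of the cell type markers, and at an unadjusted p under 0.05 there were 0 to 3 higher and 1 to 7 lower genes in each of the 6 lists.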

How the data were processed

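RNA-seq was read from 8 libraries, for which the authors aligned reads to GRCm38 with STAR and quantified transcripts with Salmon in an nf-core RNA-seq pipeline, whose release the study's methods state (versions of STAR and Salmon and the strand setting: not given in the sources used here). The deposited values were estimated counts and TPM per transcript. Both were summed to 45321 genes with GENCODE M21, which matched 108214 of 109617 transcripts (98.72%). Unmatched transcripts held 0.262% to 0.303% of reads and were left out. Sums of estimated counts were rounded to whole numbers.

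Genes were filtered with filterByExpr (minimum 10 reads), scaled by TMM and tested under R 4.3.3 by the quasi-likelihood test of edgeR 4.0.16 on all 8 libraries, fitting genotype alone (18852422 to 25540529 reads each). Adjusted p-values are Benjamini-Hochberg values over all 12963 genes tested, two-sided, with a threshold of 0.05. A second edgeR fit with a mean for each line compared the lines. CPM used the TMM-scaled library totals, and the deposited TPM were used to compare genes. Intervals and floors cover counting error only.

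Alternatives were DESeq2 1.42.0, limma 3.58.1 on log2(TPM + 0.1), limma-voom with a correlation within lines, lines summed, other filters and scalings, a block for replicate or line number, and each library left out. Leaving out whole lines, and other filters and scalings for the comparison of lines, were added after the data had been seen. The script was tested on simulated data. Same-numbered libraries of the genotypes correlated at 0.2, −0.04, −0.04 and 0.07 in their deviations from genotype means. Within lines, the difference of replicate 2 from replicate 1 correlated at 0.14 to 0.34 between all pairs of the 4 lines, so replicate number went with a shared difference, of which the labels say nothing, and blocked values are given beside the calls they change.

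The members, gene lists, markers and tests were chosen with earlier results of these data known. Members are named by role, and 1 of the 27 tested, which was not called, is counted but not reported here; of the other lists, the genes named were picked after their values were seen. Promoter sequences came from RefSeq on GRCm38.p6, with an entry for 23 of 37 members; protein sequences were not used here.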

Additional observations from a re-analysis of the deposited data

Results flagged for a closer look

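In 54 sets of 4 libraries (27 tested members in 2 genotypes), 2 held a library that stood apart from the other 3, with a gap over the range above Dixon's 95% critical value, and chance alone flags about 1 in 20 sets. Itga9 was at 47.7 CPM in Fib-Ctrl line 2 replicate 1, against 30 to 31.5 CPM in the other Fib-Ctrl libraries (gap over range 0.919). Itga11 was at 356 CPM in Fib-dZeb1 line 1 replicate 1, against 57.4 to 106 CPM in the other Fib-dZeb1 libraries (0.839).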

How the results depend on the processing

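No member reversed its call, and Itga9 was lost only with lines summed. The 2 members called higher and 4 called lower became 4 and 3 with library size alone (all genes 2272 and 719), 4 and 6 with DESeq2 (1573 and 1758), 2 and 4 with TPM in limma (1984 and 725), 4 and 6 with a line number block (1292 and 1374), 0 and 1 in limma-voom with a correlation within lines (114 and 146), and 0 and 0 in edgeR with lines summed (9 and 7). Without 1 library there were 0 to 4 higher and 1 to 5 lower members, and 476 to 1011 higher and 508 to 1141 lower genes in all. Without both libraries of Fib-dZeb1 line 1 there were 5 and 5 members (818 and 929 genes in all), and without both of line 2 there were 0 and 2 (384 and 433 genes in all), an omission chosen after seeing the data. With every gene of at least 1 read kept, also chosen after seeing the data, 20 members differed between the Fib-Ctrl lines and 17 between the Fib-dZeb1 lines. Where a cause is not plain from fewer libraries, the cause was not tested.

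With a replicate block, 2 members were higher and 5 lower (920 and 1046 genes in all). The block gained Itga1 (adjusted p = 0.027) and Itga11 (0.038), lost Itga2b (0.0638) and changed no other call of a tested member. In 3 of 8 cases a library correlated best with the library of its own line and replicate number. Precision was limited by 4 lines and, for Itgb4, Itga2b and Lama2, by totals of 137 to 871 reads per genotype.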
